A study of Rattus norvegicus with 6 samples.

Results

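The arrays carried 819 probes for long non-coding transcripts whose array name began with MR, set apart here from the larger group named MRAK, and they were 819 of the 24684 non-control probes on each array. They were chosen by their name alone and not by any measured value. What the letters MR stand for is not stated in the sources used here. In 685 the remainder of the name had the form of a UCSC gene identifier (MRuc), in 61 that of a cDNA clone (MRBC) and in 46 that of a RefSeq non-coding record (MRNR). The other 27 carried 12 smaller prefixes, of which MRFT was the most frequent with 12 transcripts. The files pair none of these names with a gene, a position in the genome or a probe sequence, so the transcripts are given below by their array names.

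Long non-coding RNAs are transcripts that are processed much like mRNAs but are not translated into a known protein. Some act on chromatin, on splicing or on the stability of other RNAs, and for most no function has been assigned. They tend to be less abundant than mRNAs and more restricted to particular cell types, and several have been described in pancreatic islets, the clusters of hormone-secreting cells that include the insulin-producing beta cells.

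The study compared islets of 3-month-old and 12-month-old male Wistar rats, an outbred strain, to ask whether the transcriptome of the islet changed as the animals aged. RNA of 3 rats of each age, isolated from islets freed by collagenase, was labelled with Cy3 and hybridised to 1-colour Arraystar/Agilent arrays, 1 array per rat; the labels give no treatment for either age. Islets are a mixture of cell types, so fewer cells of a type and less of a transcript per cell cannot be told apart. The 3 arrays of each age were scanned together and apart from those of the other age, and the effect of a scan cannot be told apart from that of age in what follows. The third 12-month array carries no number in the labels and is called 12-month 3 here.

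The labelled tissue showed the signal of its hormones. Ins1, which encodes insulin, had a normalized signal of 18.67 ± 0.22 at 3 months and 18.77 ± 0.08 at 12 months (log2 units, SD, n = 3), and glucagon (Gcg), somatostatin (Sst) and pancreatic polypeptide (Ppy) were also close to 18. Digestive enzyme genes of the surrounding acinar tissue were also bright. They ranged from Ctrb1, at 15.90 ± 1.64 at 3 months and 16.65 ± 1.96 at 12 months, to Pnlip, a pancreatic lipase, at 18.40 ± 0.11 and 18.46 ± 0.03. Of the listed markers with a tested probe, 2 of 5 nerve and Schwann cell genes were lower at 12 months by limma at an adjusted p under 0.05, with a list median of −1.42 on the log2 scale and a range of −3.04 to −0.52. These were Prph, a neuronal intermediate filament gene, and Sox10, a transcription factor gene of glia, which lacked a value on at least 1 of the 3-month arrays. Of the delta cell genes 1 of 2, Hhex, was higher, and none passed in the beta, alpha, PP, acinar, duct, endothelial, immune and stellate lists. Among the genes that did not pass, the fitted difference was 1.68 for Col3a1 and 1.39 for Dcn, both genes of the extracellular matrix in the stellate list (limma adjusted p = 0.0670 and 0.0734, ages not overlapping). It was −2.11 for the endothelial cadherin gene Cdh5 (limma adjusted p = 0.0515), which was above background on no 12-month array. The other tested endothelial gene, Pecam1, went the other way, by 1.23 (limma adjusted p = 0.124, ages not overlapping). In the beta cell list Iapp differed by 0.95 (limma adjusted p = 0.0532, ages not overlapping), and Ins1 and Ins2 by 0.10 and −0.12. The part of these markers in the results on the MR transcripts was not tested.

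The MR transcripts were well above background less often than the other probes on every array. On the 3-month arrays 1, 2 and 3, 61.1%, 65.1% and 67.0% of the 819 were well above background, and on the 12-month arrays 47.3%, 42.2% and 39.7%. Over all probes the shares were 73.1%, 76.5% and 77.5% at 3 months and 64.2%, 59.9% and 59.5% at 12 months. The shares of both ages therefore did not overlap, neither for the MR transcripts nor for the whole array. The uncorrected signal of the negative control spots moved with age in the same arrays: its median was 30.2 ± 0.764 at 3 months and 90.5 ± 0.866 at 12 months (SD, n = 3). Its part in the lower detection at 12 months was not tested.

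**Figure D1:**
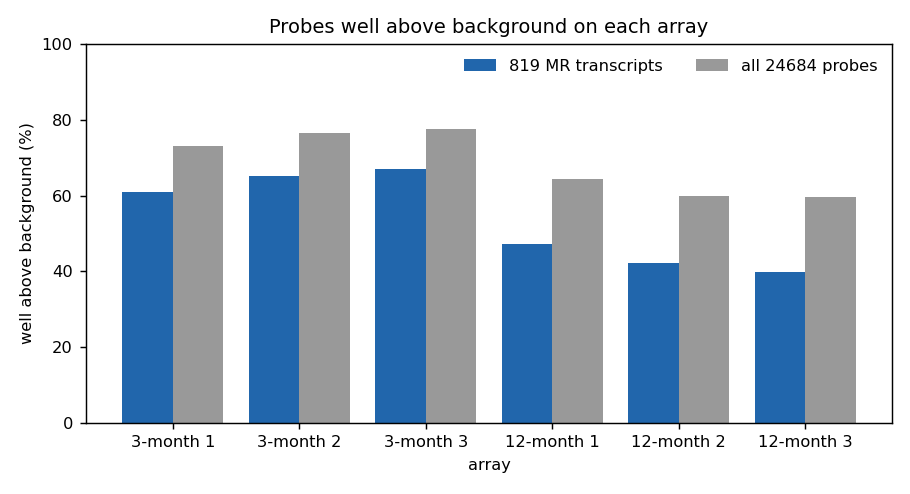
Share of probes well above background (y axis, %) on each of the 6 arrays (x axis), for the 819 MR transcripts (blue) and all 24684 probes (grey). The MR transcripts lie below the whole array on every array, and the 3-month shares (61.1% to 67.0%) lie above the 12-month shares (39.7% to 47.3%).

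To be tested, a transcript had to reach this detection mark on 3 or more arrays of either age, and 495 of the 819 were tested among 17941 probes in all. Of the MRuc transcripts 405 of 685 were tested, of the MRBC transcripts 39 of 61, of the MRNR transcripts 30 of 46 and of the smaller prefixes 21 of 27, including all 12 MRFT transcripts. Of those left out, 240 were above background on no array and 83 on 1 or 2 arrays. A further transcript, MRuc008lkx, was bright on the 12-month arrays, with normalized signals of 13.23, 13.42 and 13.41, but all its spots on the 3-month arrays were marked as outliers by the scanner software and it could not be tested.

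Most tested MR transcripts were dim. Their mean signal over the 6 arrays ranged from 3.20 to 16.88 log2 units with a median of 7.09, against 9.42 for the RefSeq mRNA probes. The median over the tested MR transcripts was 7.20, 7.10 and 7.09 on the 3-month arrays and 6.97, 7.06 and 7.03 on the 12-month arrays, so that every 12-month array lay below every 3-month array. The filter favoured this order, since it kept 104 of the transcripts through 3-month arrays alone and 0 through 12-month arrays alone. Where no filter was set, the median difference of the MR transcripts was −0.056. Signals of different probes are not compared as abundances, since each probe binds its target with its own strength. For the brightest pair the arrays of both ages overlapped. MRNR_003557, the brightest of all, had 16.92, 17.08 and 16.64 log2 units at 3 months and 17.02, 16.80 and 16.81 at 12 months. MRuc007gex, the brightest MRuc transcript, had 16.39, 16.52 and 16.55 at 3 months and 16.33, 16.56 and 16.32 at 12 months, a difference of −0.09 ± 0.22 (SE; limma adjusted p = 0.802, exact permutation p = 0.4). The next brightest, MRBC052873, spread more widely, with 15.11 ± 1.31 log2 units at 3 months and 16.01 ± 0.60 at 12 months (SD, n = 3), and its difference of 0.90 did not pass (limma adjusted p = 0.371). Among the 10 brightest, MRNR_024327 was lower on every 12-month array, by −0.56, and did not pass either (limma adjusted p = 0.175).

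Each MR transcript was printed on 3 spots per array, and spots of an array differed far less than arrays of an age. The median SD was 0.140 log2 units over the spots of a transcript and 0.437 over the arrays within an age, 0.431 at 3 months and 0.380 at 12 months. The median size of the difference between ages was 0.667, and for 318 of the 495 the difference exceeded the pooled SD within an age. Across the tested MR transcripts, arrays of the same age correlated with r of 0.949 to 0.978 and arrays of different age with r of 0.869 to 0.954; these are correlations across transcripts, which share the brightness of their probes. The array that lay farthest from the mean of its age was most often 12-month 2, for 52.9% of the transcripts, and among the younger rats 3-month 1, for 40%.

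Between the ages, 41 of the 495 tested MR transcripts differed at an adjusted p under 0.05 in limma, 23 higher and 18 lower in the older rats. The higher calls were 4.65% of the tested MR transcripts, beside 5.32% of all tested probes, and the lower calls were 3.64%, beside 3.05%. The shares lay near those of the whole array. The 23 higher transcripts rose by 1.21 to 4.14 on the log2 scale with a median of 1.97, 11 of them by more than 4-fold, and 19 were above background on all 6 arrays. Of the 18 lower transcripts, 10 were above background on no 12-month array, so that the size of their fall is known only against a nominal bound, described below. The 6 that were above background on all 6 arrays differed by −2.28 to −1.06, with a median of −1.39. The arrays of both ages did not overlap for any of the 41. With each array shifted to a common 75th percentile in place of quantile normalization, 56 passed and 37.5% of them were higher, against 56.1% of the 41. With the normexp background correction 43 passed and 67.4% were higher.

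By the cut-offs the study used (more than a 2-fold change and a nominal p under 0.05), applied here to the limma p and called the study's criterion below, 122 MR transcripts passed, 45 higher and 77 lower. With the methods' t-test in place of limma 85 passed, 39 higher and 46 lower, so that 45.9% were higher. The higher ones were 9.09% of those tested, beside 10.1% of all probes, and the lower ones 15.6%, beside 11.9%. Higher transcripts made up 36.9% of the 122, but 20.5% of 176 with the 75th percentile shift and 46.6% of 58 with normexp. The arrays of both ages did not overlap for 65 transcripts that were higher at 12 months, or 13.1% beside 16.5% of all probes, and for 132 that were lower, or 26.7% beside 22.6%.

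The tested MR transcripts as a whole leaned towards lower signal at 12 months, as did the array. Their median difference was −0.33 on the log2 scale, with quartiles of −0.84 and 0.24, and 323 were lower and 172 higher by sign. The median over all tested probes was −0.17, so that the MR transcripts lay at −0.16 relative to the array. With the 75th percentile shift the median of all probes moved to −0.40 and the MR transcripts lay at −0.27 relative to it. Where no filter on dim probes was set, the median of 818 MR transcripts was −0.056 and lay 0.0086 above that of all probes, so that the lower position relative to the array was not seen there. Among the 299 transcripts above background on all 6 arrays the median was −0.20, or −0.12 relative to all probes that passed the same filter.

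**Figure D2:**
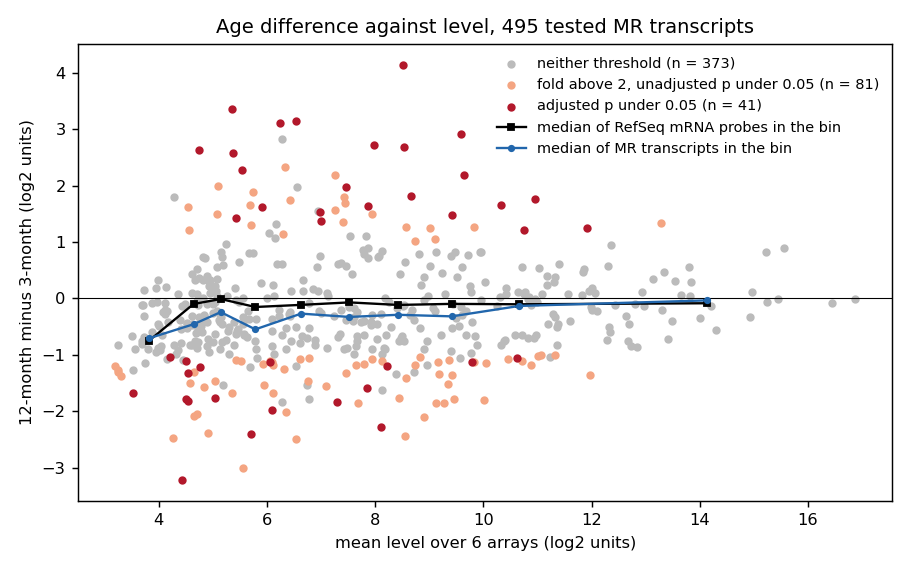
Difference in normalized signal between the ages (y axis, 12-month minus 3-month, log2 units) against the mean signal over the 6 arrays (x axis, log2 units) for each of the 495 tested MR transcripts, coloured by threshold, with the median of the MR transcripts (blue line) and of RefSeq mRNA probes (black line) in bins of the same signal. The 41 transcripts at an adjusted p under 0.05 lie between 3.52 and 11.91 on the x axis, and the transcript at the top is MRuc008jty (4.14).

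Part of the lower transcripts had no measurable signal at 12 months. The filter kept some transcripts through their 3-month arrays alone, which favours this direction, so the following counts are a description. Not every transcript kept in this way had a lower measured value. That of MRuc008etg was higher by 0.33 at 12 months, but it was above background on no 12-month array, so this is not a measured rise. Of the 495, 104 (21.0%) were above background on no 12-month array, against 14.5% of RefSeq mRNA probes of the same brightness and 10.3% of all tested probes. None (0 of 495) was above background on 12-month arrays only. That pattern was also rare in mRNA probes of the same brightness (0.262%) and in all tested probes (0.139%). Of the 104, 10 were lower at an adjusted p under 0.05 and 23 by the study's criterion. The shares called among all probes of this pattern were not taken. For such transcripts the 12-month level is only a bound. It was set on each array by the lowest signal among probes well above background, or by the transcript's own signal where that was higher. Transcripts above background on no 12-month array could exceed that lowest signal, so the bound is nominal and not a strict limit. For 8 of the 10 the nominal bound gave falls of 1.18-fold to 4.05-fold, more than 2-fold in 3 of them, and for 2 it gave no fold. Among the 299 transcripts above background on all 6 arrays 19 were higher and 6 lower at an adjusted p under 0.05, and 36 were higher and 39 lower by the study's criterion. In a fit of such probes alone, 12.7% of the MR transcripts passed the adjusted threshold, beside 13.4% of mRNA probes of the same brightness. By the study's criterion 12.0% and 12.8% were higher there, and 13.7% and 9.29% were lower. The higher negative control signal of the 12-month scan, given above, moves with these counts, and its part was not tested.

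The largest rise was that of MRuc008jty, which was above background on all 6 arrays. Its normalized signal was 6.64, 6.88 and 5.82 log2 units at 3 months and 10.44, 10.88 and 10.45 at 12 months. Every 12-month array was thus far above every 3-month array, and the median SD over its spots was 0.0669. The difference was 4.14 ± 0.34 (SE; 17.7-fold, limma adjusted p = 0.00336, exact permutation p = 0.1, the smallest that 3 arrays against 3 allow). It passed the adjusted threshold in 13 of 15 alternative settings.

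The next largest fitted rise among the calls was that of MRuc008owz, a dim transcript with 2.79, 3.35 and 4.90 log2 units at 3 months and 7.41, 6.87 and 6.85 at 12 months. It was above background on 2 of the 3 younger arrays and on all older ones, and the lowest 12-month array was above the highest 3-month array. The difference was 3.37 ± 0.54 (SE; limma adjusted p = 0.0199), and it passed in 7 of 14 alternative settings. With normexp the difference was 1.18 (adjusted p = 0.0187), so that its size and its rank rest on signals near background. Without 12-month 1 the adjusted p rose to 0.0808, without 12-month 3 to 0.0632, without 3-month 1 to 0.0612 and without 3-month 2 to 0.0520.

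Leaving out single arrays ended most of the calls. Between 3 and 31 of the 41 were still called by limma without 1 array, and 3 transcripts held without any of the 6 arrays. These were MRuc008jty, MRuc007uxi and MRuc008akb, all rises; the names MRuc007uxi and MRuc008akb were picked after their values were seen. MRuc007uxi had 7.91, 8.01 and 8.46 log2 units at 3 months and 11.28, 11.10 and 10.72 at 12 months, a difference of 2.91 ± 0.28 (SE; 7.5-fold, limma adjusted p = 0.00447). MRuc008akb had 6.66, 6.80 and 6.38 at 3 months and 9.33, 9.46 and 9.20 at 12 months, a difference of 2.72 ± 0.23 (SE; 6.57-fold, limma adjusted p = 0.00369). In all 3 the gap between the ages was wider than the spread within either age.

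The falls named by the rule, which ranked the calls by their fitted difference, were those of MRuc009bcl and MRuc009dbf. Neither was above background on any 12-month array, so their rank among the falls is not known. MRuc009bcl had 6.72, 5.0 and 6.40 log2 units at 3 months and measured values of 2.13, 4.18 and 2.15 at 12 months. By the nominal bound it was 2.36-fold lower at 12 months (limma adjusted p = 0.0398 on the measured values), a call that held in 5 of 14 alternative settings. MRuc009dbf had 7.82, 6.57 and 6.30 at 3 months and 4.49, 4.62 and 4.38 at 12 months. By the nominal bound it was 4.05-fold lower (limma adjusted p = 0.0232 on the measured values), a call that held in 8 of 14. With normexp, which adds an offset to every signal, the differences shrank from −3.22 to −0.83 (adjusted p = 0.0696) for MRuc009bcl and from −2.40 to −1.06 (adjusted p = 0.0565) for MRuc009dbf. MRuc009bcl was no longer called without 12-month 1 (adjusted p = 0.135), 12-month 3 (0.112), 3-month 1 (0.125) or 3-month 3 (0.113), nor was MRuc009dbf without 12-month 1 (0.0905) or 12-month 3 (0.0781).

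**Figure D3:**
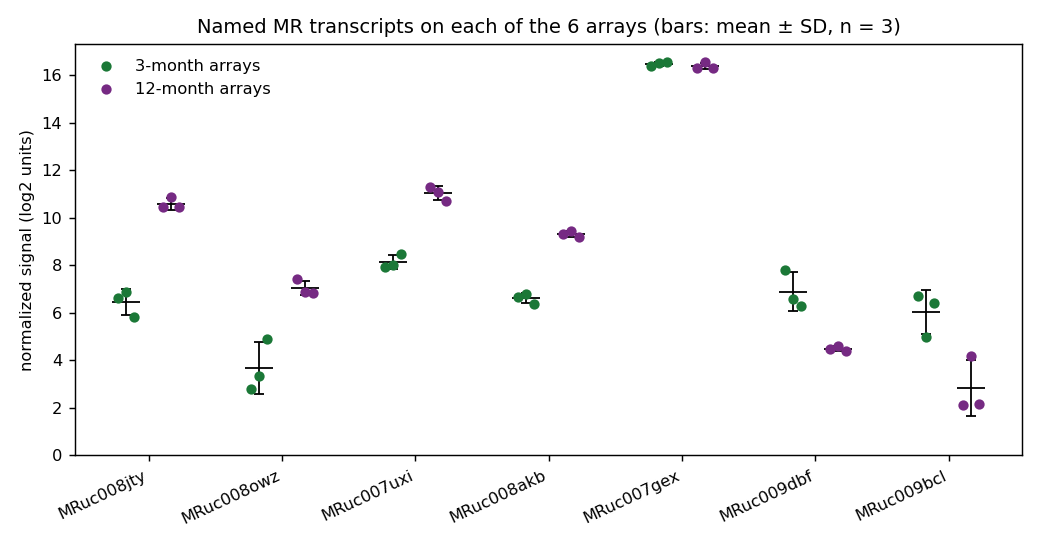
Normalized signal (y axis, log2 units) of 7 MR transcripts (x axis) on each array, 3-month in green and 12-month in purple, with the mean and SD of 3 arrays as bars. The 4 rises on the left show no overlap between the ages, MRuc007gex overlaps near 16.4, and the 12-month points of MRuc009dbf and MRuc009bcl were not well above background.

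Most calls fell among the MRuc transcripts, the most numerous group, and the other prefixes held few tested transcripts. Of 405 MRuc transcripts 18 were higher and 15 lower at an adjusted p under 0.05, and 37 and 61 by the study's criterion (24.2%), with a median difference of −0.32. Of 39 MRBC transcripts 1 was higher and 3 lower, and 2 and 9 by the study's criterion (28.2%), with a median of −0.33. Of 30 MRNR transcripts 2 were higher and none lower (11 higher and 19 lower by sign), and 4 and 2 by the study's criterion (20%), with a median of −0.18. Of the 21 with smaller prefixes 2 were higher, and 2 and 5 passed by the study's criterion (33.3%), with a median of −0.68. Of all tested probes 10.1% were higher and 11.9% lower by the study's criterion, and 5.32% and 3.05% at an adjusted p under 0.05. The prefixes also differed in median signal, from 5.94 log2 units for MRBC to 7.98 for MRNR. Their shares were not set beside mRNA probes of the same brightness, and no difference between prefixes was tested.

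The calls outside MRuc were few and are named here after their values were seen. MRBC049236 had 7.63, 8.24 and 7.41 log2 units at 3 months and 9.90, 9.38 and 9.45 at 12 months, a difference of 1.82 ± 0.31 (SE; limma adjusted p = 0.0222). MRBC041676 had 10.18, 8.49 and 9.10 at 3 months and 6.64, 7.65 and 6.63 at 12 months, a difference of −2.28 ± 0.50 (SE; limma adjusted p = 0.0425). Neither overlapped between the ages, though 3-month 2 and 12-month 2 of MRBC041676 lay less than 1 log2 unit apart. MRBC062110 differed by −1.20, and MRBC051595, above background on no 12-month array, was 1.57-fold lower by the nominal bound.

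Both MRNR calls were rises. MRNR_003547 had 4.06, 5.71 and 5.12 log2 units at 3 months and 7.97, 8.02 and 8.32 at 12 months, a difference of 3.14 ± 0.43 (SE; limma adjusted p = 0.0129). MRNR_002322 had 2.51, 3.55 and 4.21 at 3 months, above background on 2 of 3 arrays, and 5.94, 6.47 and 5.74 at 12 months, a difference of 2.63 ± 0.46 (SE; limma adjusted p = 0.0244). For both, the lowest older array exceeded the highest younger one by more than 1 log2 unit.

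The differences of the 12 MRFT transcripts ranged from −3.01 to 2.28, within the range of the MRuc transcripts (−3.22 to 4.14), with quartiles of −0.55 and 0.30. MRFT39790 had 3.68, 4.97 and 4.57 log2 units at 3 months, above background on 2 of 3 arrays, and 6.83, 6.31 and 6.92 at 12 months, a difference of 2.28 (limma adjusted p = 0.0219). MRFT31906 had 5.78, 6.21 and 6.62 at 3 months and 7.41, 7.76 and 8.06 at 12 months, a difference of 1.54 (limma adjusted p = 0.0349). At the other end MRFT35653 had 6.70, 6.49 and 8.02 at 3 months and 5.94, 3.10 and 3.15 at 12 months, above background on 1 of the 3 older arrays, and its difference of −3.01 did not pass (limma adjusted p = 0.0689). The ages did not overlap for these transcripts, but 12-month 1 of MRFT35653 stood close to the younger arrays. The brightest of the prefix, MRFT35910, had 14.69, 15.21 and 14.50 at 3 months and 15.61, 15.95 and 15.32 at 12 months, a difference of 0.83 that did not pass (limma adjusted p = 0.115).

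Since calls depend on brightness and the MR transcripts were dimmer than mRNA probes, both were compared within 10 bins of equal signal. Among RefSeq mRNA probes weighted to the brightness of the MR transcripts, 23.8% met the study's criterion, against 24.6% of the MR transcripts, a gap of 0.80 percentage points; without this weighting the share of mRNA probes was 19.8%. By direction, 9.09% of the MR transcripts and 11.5% of the mRNA probes of the same brightness were higher, and 15.6% and 12.3% were lower. At an adjusted p under 0.05 the shares were 8.28% and 8.98%. The median difference was −0.33 for the MR transcripts and −0.16 for the mRNA probes of the same brightness. The larger MRAK group, printed on the array in the same way, had 24.9% meeting the study's criterion and a median of −0.27 over 2102 tested transcripts.

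The gap in shares was not the same at all levels. In the dimmest bin, below 4.43 log2 units, 8 of 50 MR transcripts passed (16%), all lower, against 30.9% of the mRNA probes. In the bin from 5.42 to 6.15 the shares were 36.7% and 24.4%, and in the bin from 8.90 to 9.93 they were 34.0% and 24.9%. In the brightest bin, above 11.39, 3 of 50 passed (6%), against 7.62%. A bin of 50 transcripts moves by 2 percentage points with each transcript, and no bin was tested. MR transcripts were averaged over 3 spots and most mRNA probes had 1, and the median SE was 0.343 for the former and 0.391 for mRNA probes of the same brightness. With 1 spot per probe, an alternative chosen after seeing the data, the SEs were 0.381 and 0.393 and the gap was 2.78 points.

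**Figure D4:**
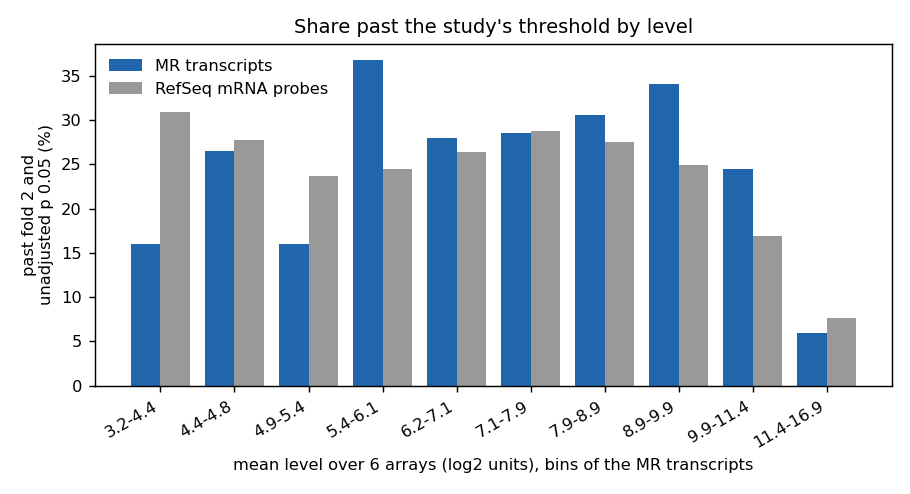
Share of probes with a fold above 2 and an unadjusted p under 0.05 (y axis, %) in 10 bins of the mean signal over the 6 arrays (x axis, log2 units), for the MR transcripts (blue, 49 or 50 per bin) and RefSeq mRNA probes (grey). Shares are 16% against 30.9% in the dimmest bin and 6% against 7.62% in the brightest, with the MR transcripts above the mRNA probes in the bins from 7.94 to 11.38.

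The number of calls at an adjusted p under 0.05 varied with the arrays used and with the test, and less with the normalization or filter. Without 12-month 1 or without 12-month 3 only 4 MR transcripts passed in limma, without 3-month 1 there were 8, without 3-month 3 there were 12 and without 3-month 2 there were 27, whereas 62 passed without 12-month 2. Other normalizations, filters and variance models gave 38 to 58, but the filters changed the number tested. The 38 were of 299 transcripts (12.7%) and the 58 of 818 (7.09%), against 41 of 495 (8.28%). By the study's criterion the count without 1 array ranged from 90 to 154. The values nearest to the adjusted threshold were those of MRuc009den (a difference of −1.32, adjusted p = 0.0465) and MRuc007wyg (−1.06, 0.0466) inside it, and of MRuc008jpq (1.81, 0.0503) and MRNR_003546 (1.35, 0.0515) outside it.

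**Figure D5:**
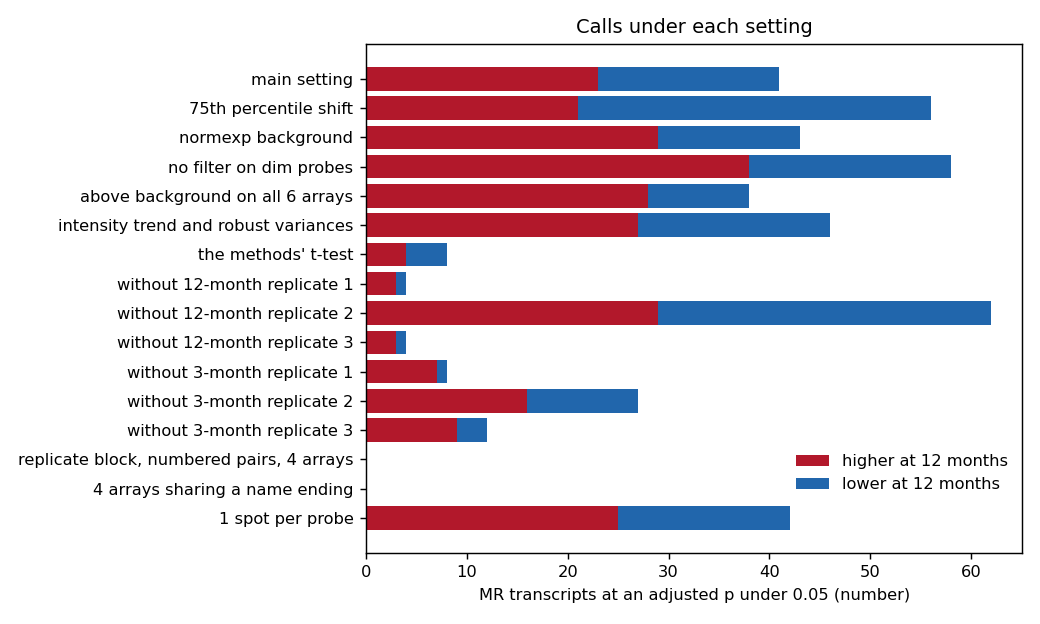
Number of MR transcripts at an adjusted p under 0.05 (x axis) under each setting (y axis), split into those higher (red) and lower (blue) at 12 months. The main setting gives 41, leaving out 1 array gives 4 to 62, and both settings with 4 arrays give 0. The number of transcripts tested differs between filters.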

How the data were processed

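Islet RNA of 3 arrays per age was analysed; groups came from the labels. The deposited scanner files hold spot intensity from Agilent Feature Extraction (version 11.0.1.1), with the background subtracted per the file headers and no scaling between arrays. The table of log2 values that the authors deposited covers 12145 probes, of which 0 are MR transcripts, and served only for that count. An array gives no read depth, so precision rests on the number of arrays.

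Here the log2 intensity of a probe was the mean of its spots, outliers left out, followed by quantile normalization across the 24684 non-control probes. A probe counted as well above background on an array if a share of at least 0.5 of its spots did, and was tested if it did so on at least 3 of 6 arrays. The ages were compared over 17941 probes with limma 3.58.1 in R 4.3.3 (two-sided lmFit and eBayes without a block). P-values were adjusted by Benjamini-Hochberg. For comparison with RefSeq mRNA probes, shares were taken within 10 bins of mean signal and weighted by the MR transcripts in each. The fit was tested on simulated data. Alternatives were another normalization, background correction, filter, variance model, the methods' t-test, each array left out, the numbered pairs, the 4 arrays sharing a name ending, an adjusted p of 0.1, 20 bins and, added after seeing the data, 1 spot per probe.

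The members, lists and tests were chosen with earlier results of these data known. Transcripts were named by a rule: the 2 largest rises and 2 largest falls among calls whose ages did not overlap and that were detected so on every array of the brighter age, the largest of each direction in every prefix with at least 50 tested probes, and the brightest of each such prefix. Others are named as picked after their values were seen.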

Additional observations from a re-analysis of the deposited data

Results flagged for a closer look

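Of the MR transcripts left untested, 7 were well above background on 12-month arrays and on no 3-month array, outside the main comparison. Each of the 7 was so on 1 array alone, 4 of them on 12-month 3, 2 on 12-month 1 and 1 on 12-month 2. The highest signal was that of MRuc008gea on 12-month 3, at 7.46 log2 units against a 3-month mean of 2.08, and the next was that of MRNR_003519 on the same array, at 6.85 against 2.75. The reverse pattern, signal on 1 or 2 of the 3-month arrays alone, held for 76 untested transcripts.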

How the results depend on the processing

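In each of 15 alternative settings every one of the 41 calls that could be fitted kept its direction. Most of these settings could not turn a direction, since they reuse the same normalized values and the ages did not overlap for any of the 41. Only the 75th percentile shift, normexp and 1 spot per probe use other values. The count of 41 fell to 8 with the methods' t-test (1.62%, beside 2.22% of mRNA probes of the same brightness). It fell to 0 with the replicate block on the numbered pairs (4 arrays) and to 0 with the 4 arrays sharing a name ending, beside 0% of those mRNA probes in both. In these limma fits 74 and 86 MR transcripts had an unadjusted p under 0.05, and the share over all probes was not taken. The count was 108 at an adjusted p under 0.1 (21.8%, beside 21.6% of those mRNA probes) and 4 to 62 with 1 array left out. The count of 122 by the study's criterion became 85 with the methods' t-test (39 higher, 46 lower), 58 with normexp, 77 with signal on all 6 arrays, 73 with the block and 75 with the 4 arrays, and ranged from 90 to 154 with 1 array left out. The median difference of −0.33 became −0.14 with normexp, −0.66 with the 75th percentile shift, −0.056 where no filter was set, −0.20 with signal on all 6 arrays, −0.19 with the block, and −0.25 with the 4 arrays; leaving out 1 array gave −0.38 to −0.27. The gap to mRNA probes of 0.80 percentage points became 5.93 with the 75th percentile shift, −2.45 with no filter, 3.64 with signal on all 6 arrays, −2.85 with the block, −1.05 with the 4 arrays, 2.78 with 1 spot per probe and −1.95 to 1.72 with 1 array left out. MRuc007gex, not called, turned from −0.09 to 0.0069 with 1 spot per probe. The cause of these moves was not tested, beyond the smaller number of arrays in some settings. The study's supplementary legends speak of pairing in the test, but the labels give no pairs and 1 array carries no number. For this reason no block was set on all 6 arrays. In the data, deviations of arrays with the same number correlated with r = −0.01 and −0.31 across all probes. With 3 arrays per age these correlations cannot exclude pairing, and whether the rats were paired is not known. Signals close to background limit what the dim transcripts can show, and 3 arrays per age limit the rest.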

Other observations

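Names of 5 pairs of tested MRuc transcripts were neighbours in the order of the identifiers, which the files do not tie to a position. In 3 of the 5 pairs both differences had the same sign, and in none of the 5 did both meet the study's criterion. In the pair with a call, MRuc009dbf was lower at 12 months, while MRuc009dbg had 5.53, 5.08 and 5.09 log2 units at 3 months and 5.55, 5.84 and 4.44 at 12 months.

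Rats of the same age differed most in the following MR transcripts. MRuc008vvw had 8.07, 5.0 and 10.02 log2 units at 12 months and 5.70, 5.64 and 3.28 at 3 months, an SD of 2.53 within the older rats, the largest among the tested MR transcripts. MRNR_002839 had 7.58, 6.53 and 3.72 at 3 months and 5.59, 5.14 and 2.50 at 12 months, an SD of 2.00 within the younger rats.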
